A study of Caenorhabditis elegans with 2 samples.

Results

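The 72 histone genes of Caenorhabditis elegans that carry his names, of 19973 protein-coding genes in the WBcel235 annotation, were examined for peaks of the transcription factor LSY-2. The rule used gene names alone, though the histone genes were picked as a subject with earlier results of these data known. RefSeq products placed 17 of them as H2A, 16 as H2B, 15 as H3, 16 as H4, 5 as H3.3 type, 1 as the linker histone H1 (his-24) and 2 as proteins with a histone domain (his-39 and his-73). LSY-2, a zinc finger protein needed for one ASE taste neuron to differ from its mirror partner, was mapped by ChIP-seq in strain OP367, genotype unc-119(tm4063) III; wgIs367, whose stable transgene puts a GFP-FLAG tag at the C-terminus of LSY-2. Whole L4 larvae, recorded as male and female animals pooled, with no exact age given, formed 1 group with 2 biological replicates. The promoter that drives the transgene is not given in the labels, and all animals came from 1 transgenic line. The deposited data were peak lists: 30000 entries (peaks and background regions) for each replicate and for both replicates pooled, and 5944 peaks that passed the irreproducible discovery rate (IDR), called the thresholded list here.

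Core histones H2A, H2B, H3 and H4 form the nucleosome, and a linker histone binds the DNA between nucleosomes. In animals, most core histone genes are replication genes: many near-identical copies, often paired head to head, whose transcripts are made while DNA is copied. H3.3 genes are mostly single genes that supply histone H3 outside of DNA replication as well. Here a histone gene was called clustered where another histone gene began within 5000 bp, which gave 67 clustered genes in 15 clusters, and isolated otherwise, which gave 5 genes: the H3.3 genes his-71, his-72 and his-74, the H1 gene his-24, and his-73. A gene counted as having a summit where the highest point of a peak fell in its window, the stretch that starts 1000 bp before any annotated 5′ end of the gene and stops 200 bp after it. The data are bulk measurements on whole worms, in which binding in fewer cells and weaker binding per cell cannot be told apart.

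The bases at 7 of the 8 distinct thresholded summits in histone windows are shown first, so that the promoters with a peak can be read beside those without one. The summit between his-67 and his-68 is not shown. Each run is 101 bases of ce11 centred on the summit, read 5′ to 3′. Capitals mark, on either strand, GAGAGA, a word known from earlier results on these peaks, the TATA box word TATAAA, and the shared histone words TGTCCCC and also CATTCGG. The runs lie at chrV:9546974-9547074 for the H4 gene his-37, chrIV:7486336-7486436 for the H2A and H2B pair his-61 and his-62, chrX:14489991-14490091 for the H1 gene his-24, and chrV:9545406-9545506 for the H2A and H2B pair his-35 and his-41, all on the plus strand. They lie at chrIII:12369126-12369226 for the H3.3 gene his-72, chrII:13829267-13829367 for the H3 gene his-42, and chrV:12660559-12660659 for the H3.3 gene his-74, all on the minus strand. The run at the H4 and H3 pair his-31 and his-32, at chrIV:8334073-8334173 on the plus strand, is centred on a summit of replicate 1, since these genes had no thresholded peak.
his-37: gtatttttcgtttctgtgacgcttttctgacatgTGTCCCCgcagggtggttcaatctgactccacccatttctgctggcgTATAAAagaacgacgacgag
his-61 and his-62: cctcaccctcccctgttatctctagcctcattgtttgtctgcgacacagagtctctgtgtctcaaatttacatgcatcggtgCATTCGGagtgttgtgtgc
his-24: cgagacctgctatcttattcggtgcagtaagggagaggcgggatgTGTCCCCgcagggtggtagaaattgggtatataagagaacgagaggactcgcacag
his-72: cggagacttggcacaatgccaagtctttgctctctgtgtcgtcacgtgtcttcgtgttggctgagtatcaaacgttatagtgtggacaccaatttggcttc
his-42: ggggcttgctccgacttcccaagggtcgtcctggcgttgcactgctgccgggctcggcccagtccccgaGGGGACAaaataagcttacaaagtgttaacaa
his-35 and his-41: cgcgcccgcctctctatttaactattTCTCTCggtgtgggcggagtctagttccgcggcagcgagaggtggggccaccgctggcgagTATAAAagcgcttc
his-74: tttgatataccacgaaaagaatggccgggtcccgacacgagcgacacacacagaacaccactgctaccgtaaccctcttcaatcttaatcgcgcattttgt
his-31 and his-32: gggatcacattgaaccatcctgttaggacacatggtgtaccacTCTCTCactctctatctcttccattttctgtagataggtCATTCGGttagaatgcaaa
Below them are the middle 101 bases of 2 gaps between head-to-head genes that had no peak in any list, at chrII:13818207-13818307 for the H2A and H2B pair his-16 and his-15, and chrIV:7488070-7488170 for the H4 and H3 pair his-60 and his-59, both on the plus strand. The gap of his-16 and his-15 is present in 3 identical copies in its cluster, and that of his-60 and his-59 is present once.
his-16 and his-15: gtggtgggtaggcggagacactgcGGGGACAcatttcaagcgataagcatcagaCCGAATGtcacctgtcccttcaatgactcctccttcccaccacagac
his-60 and his-59: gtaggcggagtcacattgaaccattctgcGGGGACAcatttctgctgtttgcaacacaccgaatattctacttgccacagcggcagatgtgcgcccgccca

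LSY-2 summits were present at a minority of histone promoters, as they were over all protein-coding genes. In the thresholded list, 11 of 72 histone genes (15.3%) had a summit in the window, beside 3892 of 19973 protein-coding genes (19.5%). The share among histone genes was thus near the background of all genes. The gap was wider in the unthresholded lists: 15 histone genes (20.8%) against 35.1% of all genes in the pooled list, 21 (29.2%) against 35.9% in replicate 1, and 20 (27.8%) against 36.6% in replicate 2. These shares count all 72 genes, many of which lie in repeated sequence. Among histone genes with mostly unique sequence the shares were above those of other genes in each list, as given below. Both replicates had a summit at the same 16 of 72 histone genes, beside 6374 of 19973 protein-coding genes. No list had a summit at 47 of 72 histone genes, beside 11783 of 19973 protein-coding genes. No comparison of these shares was tested, since the members were chosen with earlier results of the data known and neighbouring genes share summits.

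The genes with a summit differed in kind. Of the 67 clustered genes, 8 (11.9%) had a thresholded summit, and of the 5 isolated genes 3 did (60%). By family these were 3 of 17 H2A genes, 2 of 16 H2B genes, 1 of 15 H3 genes, 2 of 16 H4 genes, 2 of 5 H3.3 genes and the H1 gene his-24, while neither histone domain gene had one. The 8 clustered genes came from 4 of the 15 clusters. All 3 genes of the cluster of his-35, his-41 and his-37 had a summit, as did both genes of the pair his-67 and his-68, 2 of the 4 genes from his-61 to his-59, and 1 of the 13 genes from his-16 to his-42. With 5 isolated genes, the share rests on few genes, and the counts are given as a description. Clustered and isolated genes also differed in repeated sequence, as given below.

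**Figure D1:**
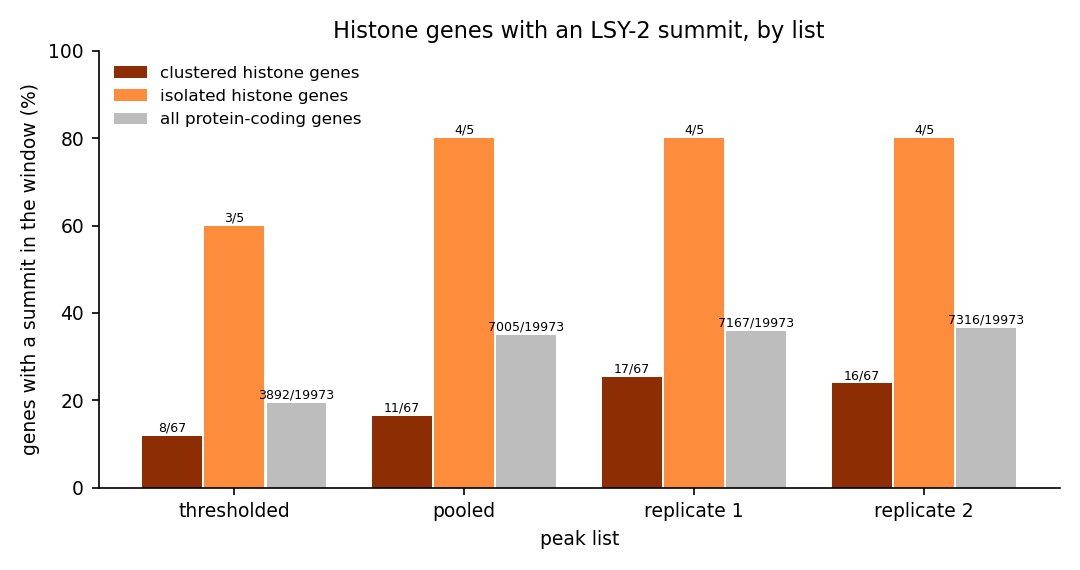
Bars give the percentage of genes with an LSY-2 summit in the window (y axis) in each of the 4 peak lists (x axis), for clustered histone genes, isolated histone genes and all protein-coding genes. The numbers above the bars are genes with a summit over all genes. Clustered genes lay below all protein-coding genes in each list (8 of 67 against 19.5% in the thresholded list), and isolated genes above them (3 of 5). Among the clustered genes, 40 had a window in which under 50% of 36-base words occur once in the genome. No gene is left out here for repeated sequence.

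The 11 genes shared 8 distinct summits, 3 of which lay between head-to-head genes. Their signal is the authors' peak value. Its scale is not stated in the sources at hand, and it was therefore read by rank and within a list. The 8 summits had a median signal of 155, beside 142 over the 3355 thresholded summits that fell in any protein-coding window and 115 over all 5944 peaks. Among protein-coding genes, the 5′ end nearest to each of the 8 summits was that of a histone gene. At 5 of them no other protein-coding gene's window held the summit. The summit at his-67 and his-68 also lay in the window of alg-5. C50F4.6 shared the one at his-35 and his-41, and ccch-3 the one at his-74. Non-coding genes were not counted here, and those at the summits of his-42 and his-24 are given below. Signal was higher in replicate 1 at 6 of the 8 summits and higher in replicate 2 at his-42 and at his-35 and his-41. The log2 difference of replicate 1 minus replicate 2 ran from -0.14 to 0.57 at these summits, beside a median of 0.51 ± 0.61 (SD) over 5823 thresholded peaks found in both replicates.

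Among genes of the core histones, the strongest summit was that of his-37, an H4 gene. Its signal was 649 in replicate 1 and 462 in replicate 2, ranks 161 and 159 of 30000 entries. In the thresholded list its signal was 1101 at rank 157 of 5944, which placed it in the top 2.64%. The summits of both replicates lay 9 bp apart, and the thresholded one 81 bp upstream of the 5′ end. It was the highest of the histone summits in each replicate.

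The next was between his-67 (H4) and his-68 (H2A) on chromosome I, the only pair of head-to-head genes that joins H4 with H2A. Its signal was 207 in replicate 1 and 165 in replicate 2, and 370.2 at rank 623 in the thresholded list. The summit lay 236 bp upstream of his-67 and 133 bp upstream of his-68. Its 101 bases held both GAGAGA and AGACGCAG.

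Both pairs of an H2A with an H2B gene that had a summit have a gap that is present once in the genome. Between his-61 and his-62 the signal was 133 in replicate 1 and 89.4 in replicate 2, with 229.8 at rank 1264 in the thresholded list, and the summit lay near the middle, 169 bp and 159 bp from the 5′ ends. Between his-35 and his-41 it was 48.6 in replicate 1 and 53.6 in replicate 2, with 105 at rank 3269 in the thresholded list. The summit there lay 80 bp upstream of his-41 and 168 bp upstream of his-35. The H2B gene his-41 and the H4 gene his-37 are neighbours on chromosome V, and the thresholded signal was 105 at his-41 and 1101 at his-37.

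The H3 gene his-42 was the only clustered H3 gene with a thresholded summit, and the position of that summit set it apart. The signal was 56.2 in replicate 1 and 60.1 in replicate 2, and 124 at rank 2748 in the thresholded list. The summit lay 620 bp upstream of the 5′ end, the farthest of the 8, and inside 2 annotated non-coding genes on opposite strands: the snRNA gene F08G2.10 at chrII:13829305-13829491 and the ncRNA gene F08G2.15 at chrII:13829286-13829492. Peaks carry no strand, so which gene the enrichment belongs to cannot be told apart here.

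H3.3 replaces H3 in chromatin outside of replication, and its 5 genes differed among themselves. At the isolated gene his-72 the signal was 75.5 in replicate 1 and 62.9 in replicate 2, and 135 at rank 2495 in the thresholded list, 126 bp upstream of a 5′ end. The isolated gene his-74 had 51.5 in replicate 1 and 42.9 in replicate 2, and 95.5 at rank 3635, 279 bp upstream. The isolated gene his-71 stayed under the threshold. Its strongest entries were 26.9 in replicate 1 and 11.3 in replicate 2, and 40.2 at rank 9033 in the pooled list. The neighbours his-69 and his-70, which lie within 5000 bp of each other and so counted as clustered, had no pooled entry, and the one entry at his-69 was in replicate 2, with a signal of 8.11 at rank 23080.

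The linker histone gene his-24 encodes an H1 protein. Signal at its summit was 94.8 in replicate 1 and 74.2 in replicate 2, and 175 at rank 1824 in the thresholded list. It lay 53 bp upstream of the 5′ end, the closest of the 8, and inside the annotated ncRNA gene M163.19 at chrX:14490006-14490148 on the minus strand. Among the histone genes under the threshold, the strongest pooled entries were at his-26 (H4), with 58.5 at rank 6098, his-71 with 40.2, his-15 (H2B) with 22.6 at rank 16213 and his-2 (H3) with 11.4 at rank 27511. The signal at his-26 was just below the lowest thresholded signal of 59.9. The entries at his-26, his-15 and his-2 lay 892, 769 and 762 bp upstream, each beyond the whole head-to-head partner gene. No entry of any list lay in the gaps between these genes and their partners. All of them count among the genes with a pooled summit.

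**Figure D2:**
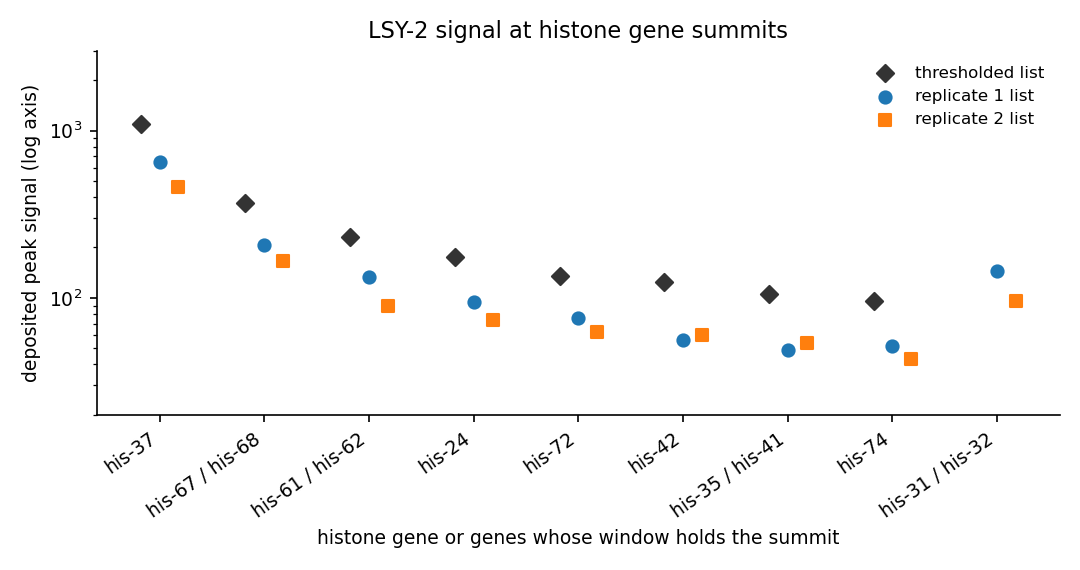
Points give the deposited signal (log axis) at each of the 8 thresholded summits in histone windows, in the order of their thresholded signal, and at his-31 and his-32, in the thresholded list, replicate 1 and replicate 2. The his-37 summit stands highest in all 3 lists (1101, 649 and 462), and his-31 and his-32 have points from the replicates only.

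The pair his-31 (H4) and his-32 (H3), singled out after the values were seen, had a summit in each replicate and none in the joint lists. The signal was 145 at rank 1163 in replicate 1 and 96.3 at rank 1296 in replicate 2. In each replicate this was higher than at his-61 and his-62, which did have a thresholded peak. The nearest pooled entry was 39.3 kb away. It bounded a stretch of 82.3 kb without a pooled entry, from 8294780 to 8377113 on chromosome IV, in which replicate 1 had 4 entries and replicate 2 had 11. Of 29994 intervals between neighbouring pooled summits, 111 were at least as long. Over the genome, 1264 peaks ranked at 1500 or better in both replicates, and 7 of them (0.554%) had no pooled summit within 200 bp, so the absence at his-31 and his-32 was unusual in these lists. Why the pooled list lacks the peak was not tested.

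Most histone windows hold much sequence that occurs more than once in the genome. The measure was the share of 36-base words in a window that occur once in the genome on either strand. Its median was 23.3% over the 72 histone genes and 100% over all protein-coding genes. It was under 50% at 40 histone genes, all of them clustered, and 0 at 20. The treatment of reads that map to several places is not stated in the sources at hand.

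Every thresholded histone summit belonged to a gene with mostly unique sequence. Of the 40 histone genes under 50%, 0 had a thresholded summit, and by counting error alone this allows for a share up to 7.5%. That limit takes the 40 genes as separate counts, though copies share sequence and neighbours share windows. A low share was also seen outside the histone genes, where 11 of 533 other protein-coding genes under 50% had a thresholded summit (2.06%). Of the 32 histone genes at 50% or more, 11 had one (34.4%), beside 3870 of 19368 other protein-coding genes (19.98%). Among these 32 histone genes, 8 of 27 clustered genes (29.6%) and 3 of 5 isolated genes (60%) had a thresholded summit. The share of these clustered genes was 33.3% in the pooled list, below that of the other protein-coding genes. It was 48.1% in replicate 1 and 44.4% in replicate 2, above them. Among all 179 protein-coding genes whose window held no unique word, 0 had an entry in any of the 4 lists. By counting error alone this allows for a share up to 1.68%. The treatment of reads that map to several places is unknown, so neither count of 0 sets a limit on binding at repeated sequence. The part of repeated sequence in the low share of clustered genes was not tested.

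**Figure D3:**
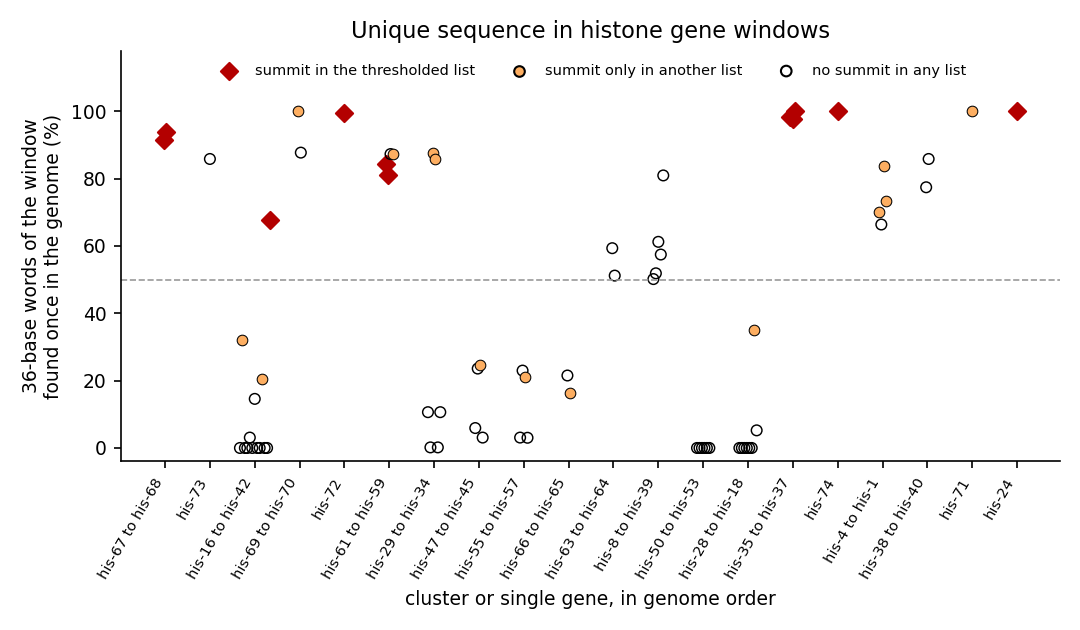
Each point is a histone gene, placed by its cluster or as a single gene in genome order (x axis) and by the percentage of 36-base words of its window that occur once in the genome (y axis). Filled diamonds mark the 11 genes with a thresholded summit, filled circles genes with a summit in another list and open circles genes with none. All 11 diamonds lie above the dashed line at 50%, and the genes at 0 are open circles.

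**Figure D4:**
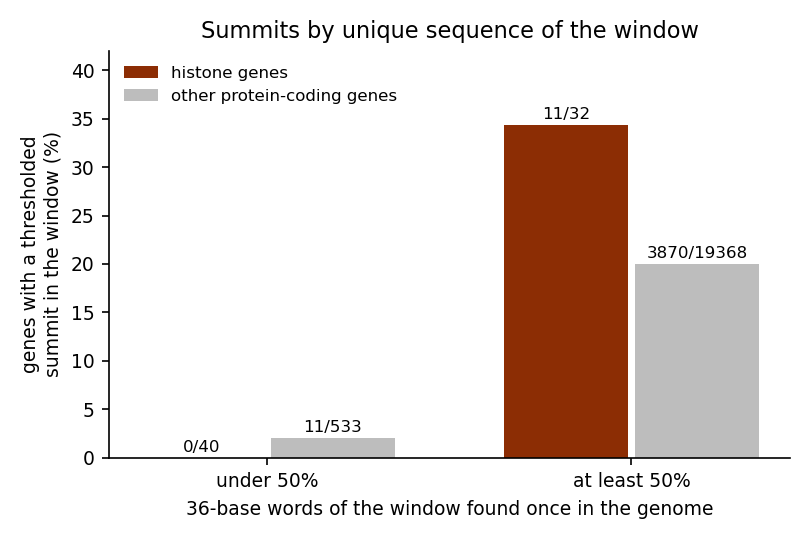
Bars give the percentage of genes with a thresholded summit in the window (y axis) for histone genes and other protein-coding genes, split by the share of unique 36-base words in the window (x axis), with counts above the bars. Below 50% the counts are 0 of 40 histone genes and 11 of 533 other genes, and from 50% they are 11 of 32 and 3870 of 19368.

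The head-to-head arrangement allowed a view of gaps in place of genes. There were 31 gaps between divergent histone genes, 227 to 368 bp long: 16 between H2A and H2B, 14 between H3 and H4 and 1 between H2A and H4. A thresholded summit lay in 3 of them, those of his-67 and his-68, of his-61 and his-62 and of his-35 and his-41. The H3 and H4 gaps held 0 thresholded summits out of 14, and 1 of them, that of his-31 and his-32, had a summit in both replicates. In the 20 gaps with under 50% unique words there was no entry of any list. In the 11 gaps with at least 50%, the lowest at 80.5%, there were 3 thresholded summits and 4 with an entry in both replicates. The remaining 7 had no entry in the gap although most of their words occur once: those of his-60 and his-59, his-63 and his-64, his-8 and his-7, his-6 and his-5, his-4 and his-3, his-2 and his-1, and his-38 and his-40. The 4 gaps with an entry in both replicates held 100% unique words. Of the 7 without an entry, that of his-38 and his-40 also held 100%. The others held 80.5% to 98.8%. Whether this difference bears on the entries was not tested.

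Words known from histone promoters and from the LSY-2 peaks themselves were counted on both strands. The TATA box word TATAAA was found in the 300 bp upstream of a 5′ end at 52 of 72 histone genes (72.2%) and 44.5% of all protein-coding genes. GAGAGA was found at 45.8% of histone genes and 25.4% of all genes, and AGACGCAG at 2.78% and 4.63%. ATTTGCAT, an octamer word, was found at 0 of 72 histone genes, which is a statement on these letters in this window alone, and at 3.59% of all genes. Near the summits, within 101 bases, GAGAGA was present at 2 of the 8 histone summits and 25.9% of all 5944 thresholded summits. AGACGCAG was present at 1 of 8 and 9.34%, and TATAAA at 2 of 8 and 5.45%. In the 300 bp upstream, GAGAGA was no more frequent at histone genes with a thresholded summit (45.5% of 11) than at those without (45.9% of 61). In the full window the shares were 63.6% and 55.7%, beside 54.6% of all protein-coding genes. The 11 genes share 8 summits, so these shares rest on few cases.

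The words TGTCCCC and CATTCGG were chosen after the sequences had been read, so their counts are a description. TGTCCCC was present within 300 bp upstream of 48 of 72 histone genes (66.7%), against 1.91% of all protein-coding genes. CATTCGG was present at 45 of 72 (62.5%), against 2.55%. They were present in 23 and 22 of the 31 gaps, and with identical gaps counted once in 14 and 13 of 21. TGTCCCC also lay within the 101 bases of 4 of the 8 histone summits, those of his-37, his-67 and his-68, his-24 and his-42, against 0.824% of all thresholded summits. It was centred 13 bp from the summit at his-37, 2 bp at his-67 and his-68, 2 bp at his-24 and 22 bp at his-42. The summits at his-42 and his-24 also lay inside annotated non-coding genes, and that of his-42 lay 620 bp upstream. CATTCGG was within the 101 bases of 2 histone summits, at his-67 and his-68 and at his-61 and his-62, against 0.993% of all. Among the gaps of mostly unique sequence, TGTCCCC was present in 3 of the 4 with an entry in both replicates and in 4 of the 7 without an entry. CATTCGG was present in 3 of those 4 and in 2 of those 7. A match to these letters is not a binding site, and whether LSY-2 reads either word was not tested.

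Histone genes outside the his names were read in the same way. Of 11 genes for linker histones and histone variants, 4 had a thresholded summit (36.4%), beside 19.5% of all protein-coding genes. The strongest by far was at htz-1, which encodes the variant H2A.Z: 2196 in replicate 1 and 1468 in replicate 2, and 3647 at rank 33 in the thresholded list, 310 bp upstream. That was above the 1101 of his-37, the strongest his gene. The centromeric H3 gene hcp-3 had 109 in replicate 1 and 64.9 in replicate 2, and 172 in the thresholded list. The linker histone genes hil-3 and hil-7 had 78.3 and 89.1 in the thresholded list, and hil-1, hil-2, hil-4, hil-5, hil-6, hil-8 and the second centromeric H3 gene cpar-1 had no thresholded summit. Each of these 11 windows held at least 85.2% unique words.

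Genes whose products bind histones or histone mRNA had summits more often, 11 of 15 (73.3%) beside 19.5% of all genes. The strongest was at lin-53, whose RbAp48-type product binds histones, with 4699 in replicate 1 and 3688 in replicate 2, and 8372 at rank 9 of the thresholded list. Next came hmg-4, a subunit of the FACT histone chaperone, with 742 in replicate 1 and 445 in replicate 2, and 1185 in the thresholded list. The other thresholded signals were 474 at nasp-2 and 235 at nasp-1 (NASP histone chaperones), 413 at nap-1 (nucleosome assembly), 276 at cdl-1 (the protein that binds the stem-loop of histone mRNA), 263 at unc-85 (ASF1 chaperone), 217 at chaf-2 and 103 at chaf-1 (chromatin assembly factor), 155 at hira-1 (HIRA, an H3.3 chaperone) and 139 at xnp-1 (ATRX). The thresholded summit lay 996 bp upstream at nasp-2, near the far edge of the window. It lay 600 bp upstream at xnp-1, 514 bp at unc-85 and 464 bp at nasp-1, and nearer at the rest. No count with a narrower window is given for this list. No thresholded summit was found at hmg-3, rba-1, asfl-1 or spt-16. The list was written with earlier results of these data known, and its share is a count without a test.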

How the data were processed

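Each deposited list gave a peak signal, a -log10 q-value and a summit position, per the deposited notes' file type. Per those notes the authors made each replicate's list and the pooled list from alignments and a control alignment, and the thresholded list from these by IDR. Not given in the sources used here are the aligner, peak caller, read length and threshold. The signal was used as deposited, and the -log10 q-value was not used further. Depth is unknown. The control alignment was not analysed here, and the ce10 lists were not used.

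Genes and 5′ ends came from Ensembl release 115 of WBcel235 (ce11). Windows and nearest 5′ ends were those of protein-coding genes only. The 72 gene IDs carry 50 different Ensembl names because copies share a name, so RefSeq symbols, 72 in number, were matched through WormBase IDs. Of the 72, 64 have every annotated 5′ end at the start codon, so distances are to the start codon there. Replicate entries were matched to a thresholded summit within 200 bp. Floors for a count of 0 are 3 counts of the total and cover counting error only. Sequences came from the RefSeq genome of the same build. Window hits were tested with planted summits, and uniqueness was tested on simulated sequence. There was 1 group, so no contrast between conditions was made. The members, gene lists and words were chosen with earlier results of these data known. Genes were named if they had a thresholded summit, were of H3.3 or H1 type, had the strongest pooled entry without a thresholded one, or were related-list members with a summit. Alternatives were the stronger 2972 peaks, windows of 500 and 2000 bp, any overlap of the peak, each replicate alone, all pooled entries, the nearest 5′ end only, and cluster distances of 2000 and 20000 bp. Python 3.11.15, numpy 2.4.6, pandas 2.3.3, matplotlib 3.10.9 and edlib 1.3.9.post1 were used.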

Additional observations from a re-analysis of the deposited data

How the results depend on the processing

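The count of 11 histone genes was 13 to 14 with the 5944 strongest peaks of either replicate alone, that of 8 clustered genes 10 to 11, that of 3 isolated genes 3 in both, and that of 8 distinct summits 9 to 10. Counting only the gene of the nearest 5′ end left 5 clustered genes, by construction, since a summit in a gap then counts once. All 30000 pooled entries gave 19 distinct summits in histone windows. The counts under the other alternatives stayed within 1.5 times of the count reported. Signals of single genes moved where a wider reach took in another peak: with a window of 2000 bp the log2 signal was 10.1 at his-35 against 6.71 as reported, 8.21 at his-41 against 6.71, and 7.41 at his-72 against 7.08, and any overlap of the peak also gave 8.21 at his-41. The summit at his-42 was lost with a window of 500 bp, and those at his-35, his-41 and his-74 with the stronger 2972 peaks. A window of 2000 bp added his-59, through the summit between his-61 and his-62 that was already counted (229.8). The median unique share of histone windows was 25.3% with 50-base words, an alternative added after seeing the data, as was the split at 50% unique words. No paired analysis was possible because there was 1 group. Unknown depth and unknown treatment of repeated reads limit what the absence of a peak shows.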

Other observations

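The gaps between head-to-head genes differed in how closely they resembled one another. The identity of each gap to its closest other histone gap was 50.2% to 79.5% in the 4 gaps of mostly unique sequence that had an entry in both replicates, and 85.7% to 95.5% in the 7 without an entry. The ranges did not overlap, but they rest on 4 and 7 gaps, and no range over other divergent genes is given here. This was seen after the values were known and was not tested. The same gaps also differed in their share of unique words, as given above.

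The annotation of the 5′ end moved with the summits as well. Of the 8 histone genes with an annotated 5′ end upstream of the start codon, 6 had a thresholded summit (75.0%), against 5 of the 64 whose 5′ ends are all at the start codon (7.81%) and 19.5% of all protein-coding genes. Of those 64, the 25 genes with at least 50% unique words held all 5.

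The summit sequences of his-37 and his-24 shared a run of 20 bases that includes TGTCCCC and occurs at 5 places in the genome. Among the 28 pairs of histone summits, the next longest shared run was 15 bases and the median was 7.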
